A study of Homo sapiens with 3 samples.

Results

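The SLC2A genes encode the GLUT proteins, mostly facilitative sugar transporters of the plasma membrane and of internal membranes. The family was taken by symbol from the platform annotation, as SLC2A1, SLC2A2, SLC2A3, SLC2A4, SLC2A5, SLC2A6, SLC2A8, SLC2A10, SLC2A12 and SLC2A13. These are 10 genes among the 17559 named genes on the array, each with 1 probe, and 8 of them were among the 16030 genes bright enough to be fitted. A further 4 SLC2A transporter genes on the array (SLC2A7, SLC2A9, SLC2A11 and SLC2A14) were outside this set and are given beside it. The set was chosen by family name with its log2 ratios on these same 3 arrays already known, so the ratios of its members are given as a description. Where the fit over all genes calls a member or gives it an interval, that is no independent evidence of a change.

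Most GLUT proteins carry glucose, and in some cases fructose or urate, down a concentration gradient, whereas the SGLT proteins of the SLC5A family use the sodium gradient. The myo-inositol transporter of the SLC2A family is proton-coupled. Most epithelial and tumor cells take up glucose mainly through GLUT1, the product of SLC2A1, and its transcript is known to respond to growth factor signalling, MYC and hypoxia-inducible factors. In the small intestine, GLUT5 carries fructose across the brush border and GLUT2 carries sugars across the basolateral membrane. CDX1 and CDX2 are homeodomain transcription factors of the intestinal epithelium that bind AT-rich sites.

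Expression was compared on 3 two-colour arrays in DLD1-TetOff cells, a human colorectal adenocarcinoma line carrying the doxycycline-repressed transactivator. Cells expressing FLAG-tagged mouse Cdx2 for 24 h, or FLAG-tagged mouse Cdx1 for 12 or 24 h, were each set against non-induced cells of the same line on 1 array. Both conditions came from clones that carry the transgene, and expression was controlled by doxycycline (0.5 µg/mL), so the presence of the drug and the induction of the factor cannot be told apart. Every array had the same dye orientation, so dye and induction cannot be told apart either.

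Each group held 1 array with no replicate. Sample titles and source names place the induced cells in Cy3 and the non-induced cells in Cy5, as does the legend of the study for the Cdx1 12 h array, but the cell line entries of the same labels state the opposite. A positive log2 ratio is therefore likely, not certainly, higher in induced cells, and every sign below turns if the cell line entries are right. The transgenes are mouse sequences, and whether the human probes read them is not known. The human CDX2 gene had log2 ratios of 0.64 on the Cdx2 array, -0.46 on the Cdx1 12 h array and 0.03 on the Cdx1 24 h array, and human CDX1 lay between -0.06 and -0.00 on all 3 arrays. Of 9 colon epithelial marker genes on the array, 9 were above background in all 6 channels.

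Promoter sequence is shown for the 3 members with a promoter entry that were called in the fit of change shared by the arrays. SLC2A3 was also called but had no promoter entry in the sequences used. Each run is the 250 bases before the annotated start (RefSeq, GRCh38.p14), written 5′ to 3′ on the strand of the gene. Capitals mark the AT-rich CDX-type core ATAAA, the hypoxia-factor core ACGTG and the CCAAT box, on either strand, where they read TTTAT for the first, CACGT for the second and ATTGG for the third. SLC2A1 lies at chr1:42958869-42959118 on the minus strand, SLC2A8 at chr9:127396919-127397168 on the plus strand and SLC2A10 at chr20:46709399-46709648 on the plus strand.
SLC2A1: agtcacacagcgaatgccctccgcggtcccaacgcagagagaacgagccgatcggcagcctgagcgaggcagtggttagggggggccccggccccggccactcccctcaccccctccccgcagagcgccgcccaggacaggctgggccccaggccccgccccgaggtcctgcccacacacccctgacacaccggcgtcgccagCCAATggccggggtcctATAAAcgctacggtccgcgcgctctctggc
SLC2A8: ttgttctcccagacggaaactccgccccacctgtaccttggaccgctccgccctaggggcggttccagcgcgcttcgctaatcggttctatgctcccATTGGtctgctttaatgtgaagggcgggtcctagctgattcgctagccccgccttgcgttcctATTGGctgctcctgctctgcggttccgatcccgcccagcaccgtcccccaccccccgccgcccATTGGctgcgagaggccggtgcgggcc
SLC2A10: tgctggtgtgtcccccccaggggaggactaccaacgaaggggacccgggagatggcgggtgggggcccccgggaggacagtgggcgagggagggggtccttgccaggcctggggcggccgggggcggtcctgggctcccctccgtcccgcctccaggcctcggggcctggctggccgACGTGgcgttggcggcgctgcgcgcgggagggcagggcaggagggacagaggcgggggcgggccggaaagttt

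The SLC2A1 promoter held 1 ATAAA, beginning 30 bases before the start inside a TATA box (TATAAA), and 1 CCAAT box at 47 bases. SLC2A8 had no ATAAA and carried 3 CCAAT boxes, at 153, 90 and 27 bases before the start. SLC2A10 had neither and held 1 ACGTG at 73 bases. All 3 windows were rich in G and C, with GC contents of 72.4% for SLC2A1, 65.2% for SLC2A8 and 76.8% for SLC2A10, and held 2, 6 and 3 GC boxes (GGGCGG, or on the other strand CCGCCC) in that order.

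Of the 10 members, 8 had a promoter entry. ATAAA occurred in 3 of these 8 (SLC2A1, SLC2A2 and SLC2A5), against 32.7% of 35097 promoter windows of the same length. In these 3 members it began 28 to 30 bases before the start. ACGTG occurred in 2 of 8 (SLC2A10 and SLC2A13), against 18.5% of all windows, CCAAT in 5 of 8 against 32% and GGGCGG in 5 of 8 against 42.6%. In SLC2A13 the core lay within the palindromic E box CACGTG, which 6.3% of all windows held. TATAAA, which contains ATAAA, was present in SLC2A1 and SLC2A5 and in 10.7% of all windows. These matches describe the letters only.

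Among the 7 members measured above the blank spots in all 6 channels, SLC2A1 had the mean ratio furthest from 0 under every processing tried. Its spot read 3089 in the induced channel (Cy3) and 4390 in the non-induced channel (Cy5) on the Cdx2 array, 2366 and 6072 on the Cdx1 12 h array, and 1761 and 3121 on the Cdx1 24 h array, in arbitrary intensity units before correction. The raw channels differ in gain and in blank level, so that the ratio was taken only after normexp correction and loess normalization within the array. The normalized log2 ratio of induced over non-induced cells was -1.53 with Cdx2, and with Cdx1 it was -2.23 at 12 h and -1.88 at 24 h. All 3 arrays thus placed SLC2A1 lower in induced cells, by 65.3%, 78.7% and 72.8%, and the mean ratio of -1.88 ± 0.35 (SD over 3 arrays) corresponds to a level 3.68-fold lower. Only 3 of the 16030 fitted genes had a lower mean ratio. Whether fewer cells expressed the transcript or each cell held less of it cannot be told apart in bulk RNA.

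SLC2A3 encodes GLUT3, a high-affinity glucose transporter best known in neurons. Its probe read 209 in induced and 107 in non-induced cells on the Cdx2 array, 181 and 175 on the Cdx1 12 h array, and 158 and 110 on the Cdx1 24 h array. The normalized log2 ratios were -0.21, -0.84 and -0.69, or 13.6%, 44.2% and 38.1% lower in induced cells, with a mean of -0.58 ± 0.33. The Cdx2 array lay nearest to 0, and its value for SLC2A3 became 0.06 when the arrays were centred without loess.

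SLC2A8 encodes GLUT8, a transporter held mainly on internal membranes. Its probe read 208 in induced and 121 in non-induced cells on the Cdx2 array, 212 and 155 on the Cdx1 12 h array, and 199 and 116 on the Cdx1 24 h array. The log2 ratios of -0.35, -0.49 and -0.46 were the most uniform of the 3 lower members (mean -0.43 ± 0.07), a level 25.8% lower on average. Without loess the mean of SLC2A8 was -0.17.

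SLC2A10 was the only member called higher. It encodes GLUT10, a transporter of internal membranes whose loss causes arterial tortuosity syndrome. Its probe read 103 in induced and 16.8 in non-induced cells on the Cdx2 array, 134 and 32.0 on the Cdx1 12 h array, and 170 and 24.2 on the Cdx1 24 h array. The log2 ratios were 0.50, 0.49 and 0.79 (mean 0.59 ± 0.17), a level 1.51-fold higher in induced cells. The Cy5 readings were only 1.46, 2.21 and 1.78 times the background threshold, and the size of the change moved with the background correction more than for any of the 3 lower members, between 0.13 with the background column of the files and 1.74 after subtraction of the blank mean. Every one of these settings left the mean of SLC2A10 above 0.

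**Figure D1:**
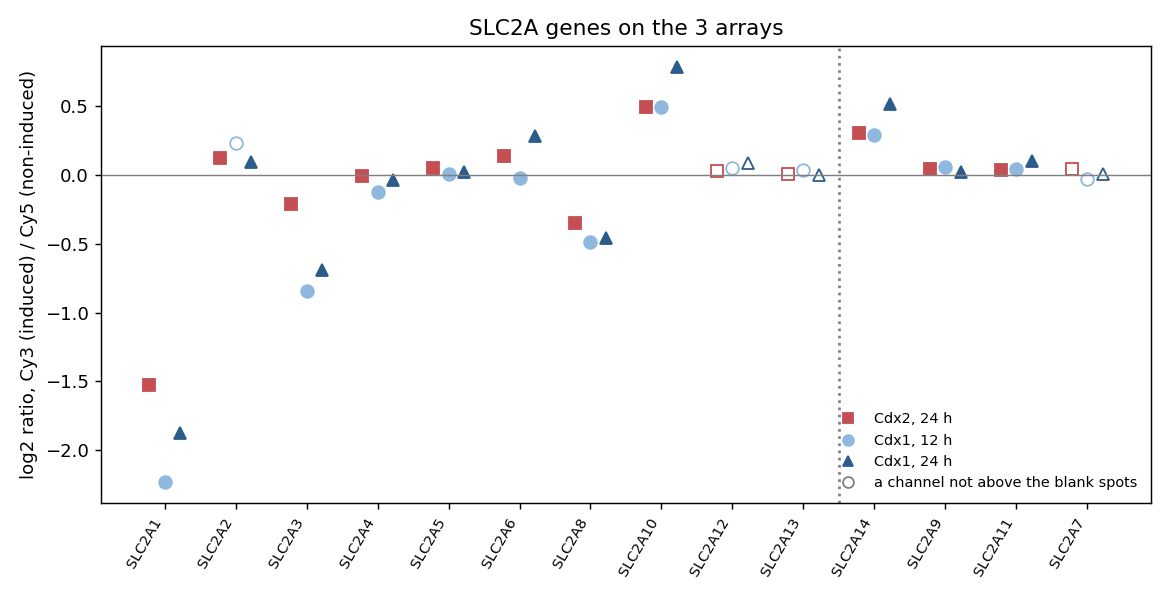
Log2 ratio of Cy3 (induced) over Cy5 (non-induced) for each SLC2A transporter probe on the Cdx2 24 h, Cdx1 12 h and Cdx1 24 h arrays, 1 point per array, with the 10 members left of the dotted line and the 4 other transporters right of it. Open symbols mark arrays where a channel was not above the blank spots. SLC2A1 lies between -2.23 and -1.53 on all 3 arrays, whereas most members lie close to 0.

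With the offset of 50 and loess, the 4 remaining fitted members stayed close to a ratio of 1. SLC2A6 encodes the lysosomal transporter GLUT6 and had log2 ratios of 0.14 with Cdx2, -0.02 after 12 h of Cdx1 and 0.28 after 24 h of Cdx1 (mean 0.13 ± 0.15). SLC2A5, encoding the fructose transporter GLUT5, had 0.05, 0.01 and 0.02 (mean 0.03 ± 0.02). SLC2A4, encoding the insulin-responsive GLUT4 of muscle and fat, had -0.01, -0.12 and -0.04 (mean -0.06 ± 0.06). These 3 sets of ratios spread around 0 by no more than 0.28 on any array. The mean of SLC2A4 was -0.42 after subtraction of the blank mean and 0.013 with the background column of the files. That of SLC2A5 was 0.43 by the deposited values, 0.23 after subtraction of the blank mean and -0.18 without loess. The closeness of both to 0 therefore rested on the processing.

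SLC2A2, encoding the low-affinity GLUT2 of liver, islets and enterocytes, was above background in 5 of 6 channels. Its ratios were 0.12 with Cdx2 and 0.09 with Cdx1 at 24 h. In non-induced cells of the Cdx1 12 h array it read 13.2, below the Cy5 threshold of 14.5. The ratio there was 0.23, but 0.08 without loess and 0.04 with the background column of the files, so it gives no bound. The Cy3 readings of SLC2A2 were 1.07 to 1.17 times the background threshold. So close to the blanks, its ratio rested on how they were treated. After subtraction of the blank mean SLC2A2 had 1.75, 4.04 and 1.33 (mean 2.37), with an offset of 0 a mean of 1.08, and by the deposited values 1.87 with Cdx2 and 1.64 with Cdx1 at 24 h. No size can therefore be given for SLC2A2.

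The remaining pair could not be measured on most arrays. SLC2A12, encoding the glucose transporter GLUT12, was above background in 1 of 6 channels, that of cells induced for Cdx1 for 24 h. SLC2A13, encoding the proton-coupled myo-inositol transporter HMIT, was above background in 0 of 6 channels. Their log2 ratios, between -0.00 and 0.09, carry no information on a change.

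Readings above the blank spots were also seen for genes of other tissues. All 5 muscle and fat marker genes were above background in all 6 channels, among them MYH7 at 1.32 to 1.53 times and ADIPOQ at 1.33 to 1.42 times the Cy3 threshold. Of 5 hepatocyte and islet markers, 2 were above in all 6 channels (APOA1 at 1.21 to 1.32 times and INS at 1.05 to 1.11 times) and 1 in none. Of 9 fibroblast, immune and endothelial markers, 4 were above in all 6 channels and 1 in none. Some such readings were well above the threshold, as for CD79A (5.34 to 6.28 times), 1 of the probes of DCN (3.53 to 4.19 times) and 1 of those of CKM (3.03 to 3.21 times). The Cy3 readings of SLC2A4 (1.06 to 1.12 times) and SLC2A5 (1.01 to 1.2 times) lay just above the threshold, as did those of SLC2A2. Whether these readings come from the named transcripts was not tested.

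**Figure D2:**
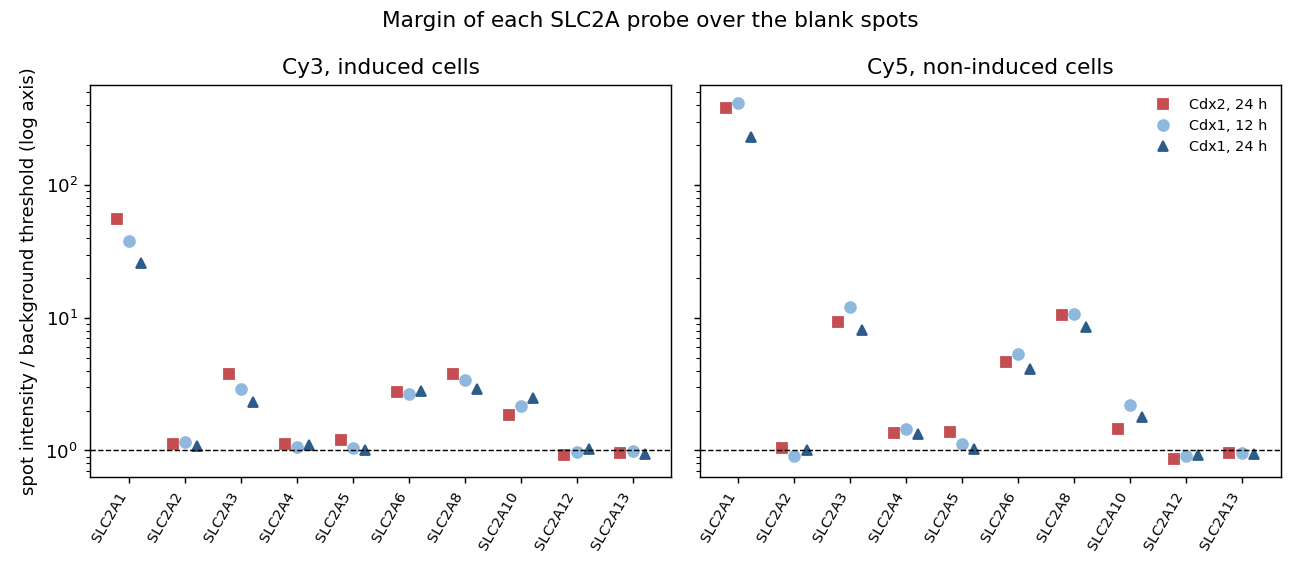
Spot intensity divided by the background threshold of its channel (log axis) for the 10 members, with induced cells (Cy3) in the left panel and non-induced cells (Cy5) in the right panel, 1 point per array. The dashed line at 1 is the threshold. SLC2A13 is below it throughout, and the plot shows detection only, since levels of different probes cannot be compared.

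Across the family, 1 member was called higher (SLC2A10) and 3 lower (SLC2A1, SLC2A3 and SLC2A8) in the limma fit of change shared by the 3 arrays at an adjusted p of 0.05, and 4 were not called. With the background column of the files 0 were called higher and 1 lower. With an offset of 200, or without either one of the Cdx1 arrays, 2 were called lower, and 2 were called higher without loess, with blank subtraction, with an offset of 0, with an intensity trend and in the deposited table. Over all 16030 fitted genes, 18.7% were called higher and 12.1% lower, 30.8% in all. These member calls only restate the ratios the set was chosen with. The median mean log2 ratio was -0.01 over the 8 fitted members and 0.01 over all genes. By array, the member median was 0.02 with Cdx2, -0.07 after 12 h of Cdx1 and -0.01 after 24 h of Cdx1, against 0.01 for all genes on each array. The family median thus lay near 0 while SLC2A1 was far from it.

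With the offset of 50, SLC2A1 alone changed at least 2-fold, and it did so on all 3 arrays. Over all fitted genes, 0.25% were 2-fold lower and 0.93% 2-fold higher on the Cdx2 array. On the Cdx1 12 h array these shares were 0.374% and 1.09%, and on the Cdx1 24 h array 0.892% and 2.29%. In either direction they came to 1.18%, 1.47% and 3.18% of genes. The other 7 fitted members changed 2-fold on no array at this offset. In the deposited table SLC2A10 passed 2-fold on all 3 arrays (1.99, 1.14 and 2.02) and SLC2A3 on both Cdx1 arrays (-1.24 and -1.17), and so they did with blank subtraction and with an offset of 0. SLC2A2 passed it on all 3 arrays with blank subtraction.

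The transporters outside the set included a close relative of SLC2A3. SLC2A14, encoding GLUT14, is a duplicate of SLC2A3 and its neighbor on chromosome 12, with 0 protein-coding genes between them. The SLC2A14 probe read 751 in induced and 277 in non-induced cells on the Cdx2 array, 846 and 360 on the Cdx1 12 h array, and 863 and 261 on the Cdx1 24 h array. Its log2 ratios of 0.31, 0.30 and 0.51 (mean 0.37 ± 0.12) were opposite in sign to those of SLC2A3 on every array, and its mean was 0.83 without loess. As the 2 transcripts are nearly identical in sequence, either probe may read both, and the values of both genes are uncertain for that reason.

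SLC2A9, encoding a urate transporter, had a mean of 0.04 ± 0.02, and SLC2A11, encoding GLUT11, a mean of 0.06 ± 0.04. SLC2A7, the neighbor of SLC2A5 on chromosome 1, was above background in 1 of 6 channels. SLC2A4RG, which encodes a regulator of the SLC2A4 promoter and no transporter, had ratios of -0.55, -0.49 and -0.74 (mean -0.59 ± 0.13, and -0.14 without loess).

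The responses to Cdx2 and Cdx1 were then compared for each member, as the Cdx2 ratio minus the mean of both Cdx1 ratios. The only spread within a gene in this comparison is that between Cdx1 at 12 and 24 h, with 1 residual degree of freedom. The limma fit moderates it toward the spread over all genes. The SE and intervals below therefore rest largely on other genes and do not measure replicate spread. The SLC2A1 ratio was -1.53 with Cdx2 and averaged -2.06 with Cdx1, a difference of 0.53 ± 0.19 (SE; 95% interval -0.02 to 1.07). For SLC2A3 the ratio was -0.21 with Cdx2 and averaged -0.77 with Cdx1, a difference of 0.56 ± 0.11 (0.23 to 0.89). Both were less negative with Cdx2. These differences use the ratios the set was chosen with and are values only.

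SLC2A8 differed by 0.12 ± 0.09 (-0.14 to 0.38) and SLC2A10 by -0.15 ± 0.16 (-0.62 to 0.33). The sign for SLC2A10 turned under 4 other settings. The other 4 fitted members differed by -0.04 to 0.07. Over all 16030 genes limma called 0%, with a smallest adjusted p of 0.935, and 5.27% had an unadjusted p under 0.05, so the absence of a call for a member says nothing on whether the factors act alike.

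At 24 h alone, the SLC2A1 ratio was 0.35 higher with Cdx2 than with Cdx1 and that of SLC2A3 was 0.48 higher, without a test. Between 12 and 24 h of Cdx1, the SLC2A1 ratio moved by 0.36 and the SLC2A10 and SLC2A6 ratios by 0.30 each, all in the upward direction at 24 h. SLC2A3 moved by 0.15 and SLC2A8 by 0.03. Among these 5 genes, the SLC2A8 ratio therefore varied least between the Cdx1 arrays.

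Levels in single channels, compared across arrays after Aquantile normalization, showed which side of each ratio varied. For SLC2A1, the log2 level in induced cells was 11.20 with Cdx2, 10.63 after 12 h of Cdx1 and 10.27 after 24 h of Cdx1, against 12.73, 12.86 and 12.15 in the non-induced cells of the same arrays. The induced and non-induced ranges of SLC2A1 did not overlap, and how many of all genes share this was not counted. The non-induced levels were not equal, being 0.58 higher in the Cdx2 clone than in the Cdx1 clone at 24 h (0.61 with quantile normalization), and -0.71 in non-induced Cdx1 cells at 24 h relative to 12 h. Single-channel values remain open to dye bias, since no dyes were swapped.

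For SLC2A3, induced cells had 7.48, 7.10 and 6.90, against 7.69, 7.94 and 7.59 in non-induced cells. At 24 h the induced level of SLC2A3 was 0.58 higher with Cdx2 than with Cdx1 and the non-induced level 0.10 higher. For SLC2A10, induced cells had 6.60, 6.82 and 7.07, against 6.11, 6.33 and 6.28 in non-induced cells. The ranges of SLC2A3, SLC2A8 and SLC2A10 also did not overlap between induced and non-induced cells. Such ranges set levels of different arrays against each other, and the share of all genes that do likewise was not counted. They add no independent evidence to the ratios.

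**Figure D3:**
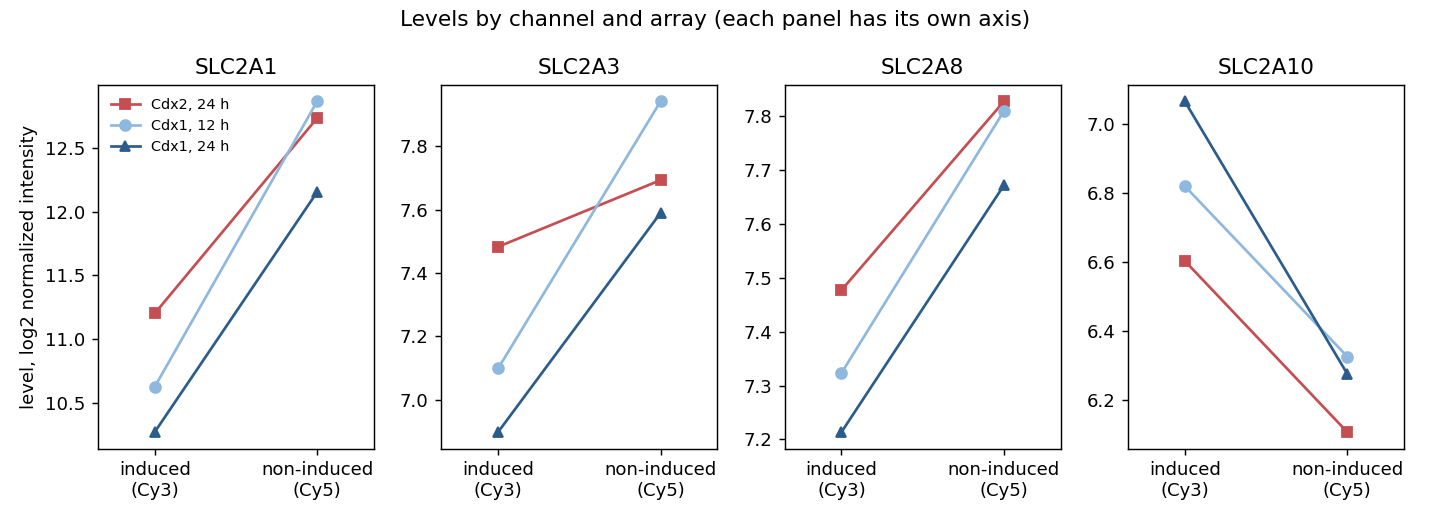
Log2 normalized level of SLC2A1, SLC2A3, SLC2A8 and SLC2A10 in induced (Cy3, left) and non-induced (Cy5, right) cells, 1 line per array, each panel with its own axis. Lines fall toward the induced side for SLC2A1, SLC2A3 and SLC2A8 and climb toward it for SLC2A10. The SLC2A1 levels lie between 10.27 and 11.20 in induced and between 12.15 and 12.86 in non-induced cells.

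The genes whose 3 ratios lay nearest to those of SLC2A1, by Euclidean distance over the 3 arrays among 14851 genes above background in both channels, were TNFRSF12A (distance 0.33), ID3 (0.41), SFN (0.60), KRT18 (0.61) and RPS2 (0.76). TNFRSF12A, the receptor of TWEAK, had log2 ratios of -1.25, -2.41 and -1.94, and ID3, an inhibitor of helix-loop-helix factors, had -1.23, -1.97 and -1.78. Like SLC2A1, TNFRSF12A, ID3 and RPS2 were least negative with Cdx2 and most negative with Cdx1 at 12 h. SFN and KRT18 were most negative with Cdx1 at 24 h, at -2.01 and -2.31, against -1.83 and -1.80 at 12 h. All 5 were picked for nearness on these same ratios, so a like order is partly built in. SLC2A10 had many closer neighbors, led by TLCD4 (0.03), RNF6 (0.05), RSBN1 (0.05), VDAC3 (0.05) and KIZ (0.06). With 3 arrays such likeness describes these values only.

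Because GLUT proteins supply a pathway, 13 lists of genes of sugar uptake and use that hold no SLC2A member were read in the same fit. Of 116 measured genes, 20 were higher and 28 lower in induced cells, and 68 did not pass an adjusted p of 0.05 in limma. Over all fitted genes the shares were 18.7% higher and 12.1% lower, and each list below is to be read beside these. The median ratio was -0.03, beside 0.01 over all genes. Without the Cdx2, Cdx1 12 h or Cdx1 24 h array, 14, 8 or 9 were higher and 17, 7 or 11 lower. Over all genes, the 2998 higher and 1935 lower calls also fell, to 1391 to 2239 and 713 to 1203. Such falls, here and in the lists below, therefore do not show what any 1 array contributes. The pathway counts also depended on loess, without which 48 were higher and 16 lower. Calls over all 16030 genes moved as well, to 6372 higher and 2890 lower without loess. The median over all genes was then 0.09, and values without loess in the lists below are to be read beside it.

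Of 20 measured enzymes of glycolysis, 9 were lower and 1 higher, with a median of -0.17 that became 0.11 without loess, where 3 were lower and 6 higher. Over all genes 12.1% were lower and 18.7% higher with loess. Without loess, 2890 of all 16030 genes were lower and 6372 higher, with a median of 0.09. With loess but without the Cdx2, Cdx1 12 h or Cdx1 24 h array, 9, 2 or 4 glycolysis genes were lower and 1, 0 or 0 higher. ENO1, an enolase, had log2 ratios of -0.60 with Cdx2, -0.72 after 12 h of Cdx1 and -0.89 after 24 h of Cdx1 (mean -0.73 ± 0.07, SE; limma adjusted p = 0.00783) and was -0.31 without loess. PKM, a pyruvate kinase, averaged -0.49 (-0.03 without loess). ALDOC, an aldolase, was the gene called higher, at 0.30 ± 0.04 (limma adjusted p = 0.014). HK2, a hexokinase that traps glucose after its entry, had -0.14, -0.49 and -0.62 (limma adjusted p = 0.0466). The SLC2A1 mean of -1.88 was further from 0 than that of every glycolysis gene measured.

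Of 6 pentose phosphate genes, 4 were lower and 2 higher (median -0.29, and 0.19 without loess). The transketolase TKT had the lowest mean of the pentose phosphate list, -0.81 ± 0.10 (limma adjusted p = 0.0114; -0.29 without loess), and RPE, an epimerase, the highest, 0.41 (0.91 without loess). All 3 measured fructose and polyol genes were lower, namely SORD at -0.42, TKFC at -0.24 and KHK at -0.20, of which SORD and TKFC turned to 0.08 and 0.13 without loess. Monocarboxylate export genes were lower for 2 of 4, the lactate transporter SLC16A1 at -0.65 ± 0.10 (limma adjusted p = 0.0149; -0.14 without loess) and its chaperone BSG at -0.47 (0.05 without loess). Without the Cdx2, Cdx1 12 h or Cdx1 24 h array, 2, 3 or 3 pentose phosphate genes, 0, 0 or 1 fructose and polyol genes and 2, 1 or 1 monocarboxylate genes were lower, and 1, 1 or 0 pentose phosphate genes were higher.

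Of 5 sodium-coupled transporters, only SLC5A2 was called, at -0.18, and the median was -0.00. Of 5 fructose 2,6-bisphosphate enzymes, PFKFB3 at -0.28 and TIGAR at -0.25 were lower, TIGAR turning to 0.24 without loess. Among 5 arrestin and MondoA genes, which tie glucose sensing to transporter turnover, MLX at -0.35 and MLXIP at -0.14 were lower, MLX turning to 0.14 without loess, and TXNIP, which promotes GLUT1 removal from the surface, had -0.27 and did not pass. With any 1 array left out SLC5A2 was not called, and at most 1 gene was called lower in each of the other 2 lists.

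Of 17 genes of GLUT trafficking, 5 were higher and 1 lower (median 0.06, and 0.24 without loess), against 18.7% higher and 12.1% lower over all genes, and 4, 3 or 3 were higher and 1, 1 or 0 lower without the Cdx2, Cdx1 12 h or Cdx1 24 h array. SNAP23, a SNARE of membrane fusion, had log2 ratios of 1.25, 1.11 and 1.75 (mean 1.37 ± 0.14; limma adjusted p = 0.00837), and STXBP3, a syntaxin-binding protein, averaged 0.83. VPS29 and VPS35 are subunits of retromer, which returns GLUT1 from endosomes to the surface, and averaged 0.52 and 0.36. TBC1D4, a Rab GTPase-activating protein that holds GLUT4 inside the cell, was lower at -0.46 (-0.03 without loess).

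SLC2A1 is a known target of hypoxia-inducible factors. Of 12 other such targets outside glycolysis, 4 were higher and 0 lower (median 0.18, and 0.31 without loess), beside 18.7% and 12.1% of all genes. With any 1 array left out, 2 were higher. Glycolysis genes, some of which are also such targets, were counted above, with 9 of 20 lower and 1 higher. P4HA1, a collagen prolyl hydroxylase, averaged 0.65 ± 0.09 (limma adjusted p = 0.0121) and KDM3A, a histone demethylase, 0.36, whereas VEGFA at -0.16 and CA9 at -0.10 did not pass. Of 9 factors and regulators, the oxygen sensor EGLN1 was higher at 0.29 and EGLN2 lower at -0.17 (0.26 without loess), and EGLN2 was not called with any 1 array left out, nor EGLN1 without the Cdx1 12 h array. HIF1A had 0.39 and did not pass.

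In insulin, PI3K and mTOR signalling, 4 of 14 were higher and 2 lower, led by PIK3CA at 0.57 and by AKT1 at -0.33 (0.12 without loess), beside 18.7% and 12.1% of all genes. Of 8 AMPK genes, PRKAB2 at 0.53 and PRKAG1 at 0.37 were higher and STK11 at -0.14 lower. Without the Cdx2, Cdx1 12 h or Cdx1 24 h array, 2, 0 or 1 signalling genes and 2, 1 or 1 AMPK genes were higher, and 0, 0 or 1 signalling genes were lower. STK11 was not called with any 1 array left out. Of 8 genes of myo-inositol transport and metabolism, the substrate of the SLC2A13 product, IMPA1 alone was called, and its log2 ratios of 2.92, 3.04 and 3.48 (mean 3.15 ± 0.12; limma adjusted p = 0.00624) were the highest in any of the 13 lists. IMPA1 encodes an inositol monophosphatase. The myo-inositol list kept 1 gene called higher with any 1 array left out.

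**Figure D4:**
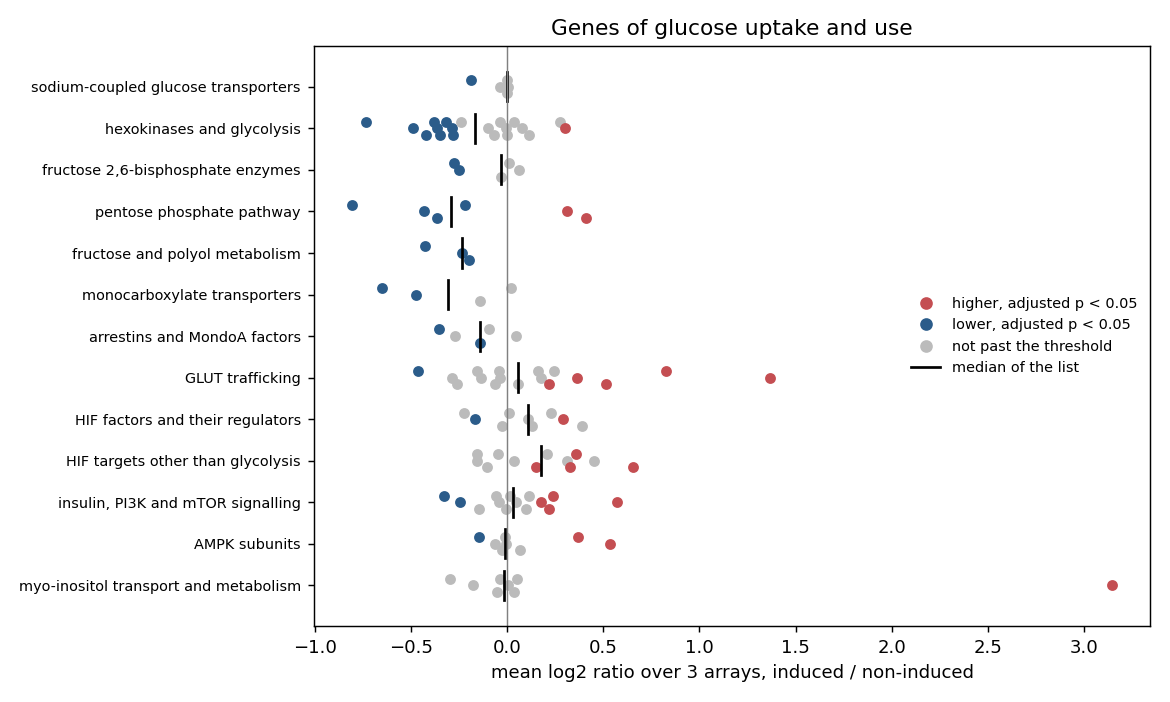
Mean log2 ratio (induced over non-induced, 3 arrays) of each measured gene in the 13 lists of sugar uptake and use, with 1 point per gene, called genes in red (higher) and blue (lower), and a vertical bar at the median of each list. Glycolysis has 9 genes lower and 1 higher, and IMPA1 stands alone at 3.15.

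For the 4 called members the processing moved the size of the mean ratio but not its sign. SLC2A1 averaged -1.36 without loess and between -1.95 and -1.77 under the other background settings. SLC2A3 averaged -0.34 without loess, -0.31 with an offset of 200 and -0.93 after subtraction of the blank mean, and SLC2A8 lay between -0.69 and -0.17. The mean of each of these 3 genes was below 0 under every setting tried.

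**Figure D5:**
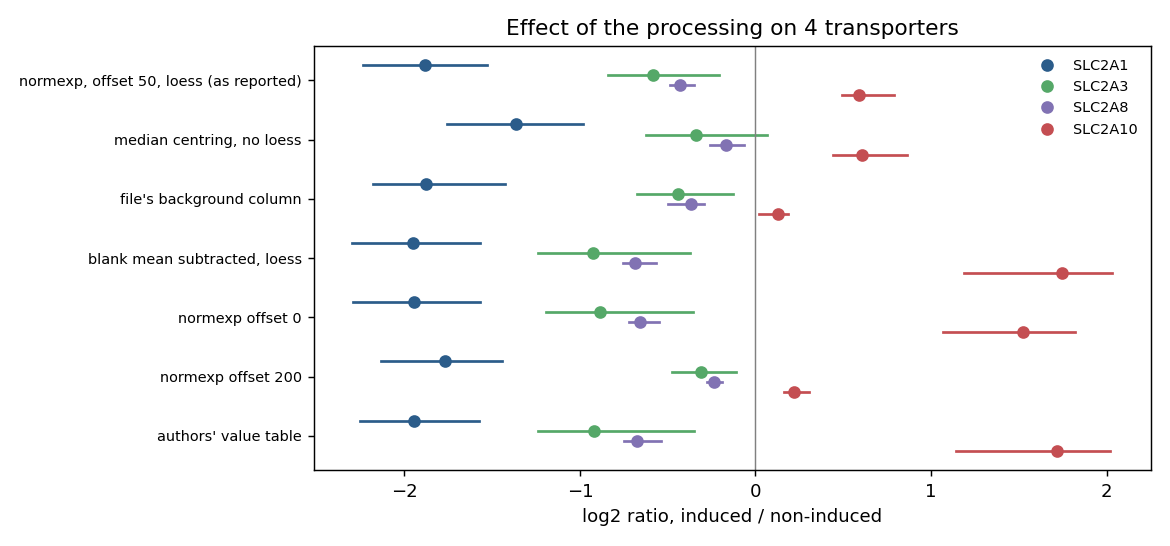
Mean log2 ratio of SLC2A1, SLC2A3, SLC2A8 and SLC2A10 (points) and the range over the 3 arrays (lines) under 7 ways of processing. SLC2A1 is lowest in every row, and SLC2A10 ranges in mean from 0.13 to 1.74.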

How the data were processed

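Spot intensity in the Cy3 and Cy5 channels came from the scanner files deposited by the authors, with no background subtracted. The deposited table of the authors holds log2 values, which matched the ratio of Cy3 to Cy5 once the mean of the blank spots was taken off, with a median of 0 on each array, and it served as an alternative. Per the labels, RNA was amplified to amino allyl aRNA on the TORAY 3D-Gene platform. The scanner software is not given in the sources used here.

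Background was corrected with normexp, ignoring local background (offset 50, which shrinks ratios of dim probes), followed by loess (span 0.3, controls with weight 0), using limma 3.58.1 and R 4.3.3. Spots with a flag (3, 1 and 6 probes on the Cdx2, Cdx1 12 h and Cdx1 24 h arrays) were dropped. The threshold for calling a probe above background was set at 2 SD over the mean of 2680 blanks, trimmed by 5% at each end, which gave Cy3 thresholds of 55.3, 62.0 and 68.1 and Cy5 thresholds of 11.5, 14.5 and 13.6. Gene values average the probes that passed this threshold on each array in 1 channel or both. The SD between the 2 probes of 2004 genes was 0.174, 0.204 and 0.217, and precision is limited by having 3 arrays.

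Shared change was fitted as an intercept (two-sided, Benjamini-Hochberg over all genes), and the Cdx2 array was set against the average of the Cdx1 pair. In both fits limma moderated the variance of each gene toward that of all genes. Nothing states that cultures were replicated, so p-values reflect only how far the 3 arrays, of different cells, spread, after this moderation. Members and gene lists were chosen with earlier results of these data known. Named genes were the SLC2A probes, the 5 genes nearest to SLC2A1 and to SLC2A10, and the called genes of each list with the 2 highest and 2 lowest means; TXNIP, VEGFA, CA9, HIF1A and the tissue markers were added after their values were seen. Alternatives were median centring without loess, the background column of the files, blank subtraction, offsets of 0 and 200, the deposited table, other filters, the brightest probe, an intensity trend, a 1.5-fold threshold and each array left out. The arrays name no genome build, and promoter coordinates are those of RefSeq.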

Additional observations from a re-analysis of the deposited data

Results flagged for a closer look

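SLC2A6 had ratios of opposite sign at the 2 times of Cdx1 expression, 0.28 at 24 h and -0.02 at 12 h on the log2 scale, the second close to 0. Without loess both were above 0, at 0.46 and 0.11. Each time had 1 array, and the difference was not tested.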

How the results depend on the processing

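Of the results on which comparisons rest, 55 values under other settings stayed within 1.5 times or 1 SD of the main value. A further 39 moved and 0 were scored as reversed. Counts could not be scored so, nor could the member median, whose main value lay nearer 0 than its spread. That median was above 0 with the background column (0.009) and without the Cdx1 12 h array (0.008). Genes of the pathway lists called higher (20) numbered 48 without loess, 12 with blank subtraction, 3 with the background column of the files and 8 to 14 with an array left out, and those called lower (28) numbered 16, 18, 2 and 7 to 17, and 15 with an offset of 200. Over all genes, 2998 higher calls became 6372 without loess, 1908 with an offset of 200, 248 with the background column and 1391 to 2239 with an array left out, and 1935 lower calls became 1233 with an offset of 200, 266 with the background column and 713 to 1203 with an array left out. The share of higher calls was 60.8%, and 48.2% with the background column. Genes changed 2-fold, summed over the arrays, were 691 higher and 243 lower. With a 1.5-fold threshold they were 3082 and 1304, without loess 2807 and 68, with blank subtraction 2724 and 1533, with an offset of 0 1903 and 742, with an offset of 200 216 and 113, and by the deposited values 2535 and 830, and 1081 were higher with the background column. The member median of -0.01 was -0.18 without loess, -0.12 with blank subtraction, -0.073 with an offset of 0, -0.33 with the deposited table, which holds 7 of the 8 members, and -0.03 to 0.01 with an array left out.

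Single genes near 0 changed sign. Without loess SLC2A11 was -0.011, SLC2A2 -0.059 and SLC2A5 -0.18, SLC2A11 was -0.019 and SLC2A4 0.013 with the background column, and SLC2A9 was -0.0073 in the deposited table. The Cdx2 minus Cdx1 difference of SLC2A10 was 0.40 with blank subtraction, 0.24 with an offset of 0, 0.091 with the background column and 0.41 in the deposited table. The cause of these changes was not tested. No paired analysis was possible because each group holds 1 array, beyond the pairing of both channels that every ratio within an array already uses.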
